A study of Mus musculus with 4 samples.

Results

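The solute carrier genes, whose symbols begin with Slc and a number, encode membrane proteins that move sugars, amino acids, ions, metals, nucleosides and metabolites across cell and organelle membranes. They were chosen from the deposited lists of m6A sites by gene name, leaving out 2 genes, and numbered 82 of the 5934 genes with a listed site. The tissue was mouse embryonic pancreas at day 15.5 of gestation. One genotype was wild type (WT). The other, called KO, had Mettl3 deleted in Pdx1-positive pancreatic progenitors (Mettl3pKO), and a whole pancreas also holds cells that do not descend from them. Age was the same in both genotypes, and the sources used here do not give the strain, the recombinase or the number of embryos per library. For each genotype 1 library of fragments captured by an antibody to m6A (MeRIP) and 1 library of uncaptured RNA (input) were sequenced. With 1 library of each kind per genotype there is no spread between replicates, and no test between genotypes was run.

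N6-methyladenosine (m6A) is the most common internal modification of messenger RNA. It is written by a complex in which Mettl3 is the catalytic subunit and is read by proteins that change the splicing, decay or translation of the RNA. Solute carriers matter in the pancreas because duct cells secrete bicarbonate, acinar cells take up amino acids for enzyme synthesis, and beta cells take up glucose and load zinc into insulin granules. Mitochondrial Slc25 carriers exchange metabolites between the matrix and the cytosol.

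Each listed site has a fold enrichment, which is the authors' ratio of MeRIP over input for that peak, and a score, which is minus the log10 of the p-value that the caller gave the peak, times 10. It also has a false discovery rate in percent. These describe single peaks within 1 list, so no ratio between WT and KO values is given. The lists hold no transcript level: a gene listed in 1 genotype only cannot be read as having gained or lost the mark, and fewer cells of a type and less RNA per cell cannot be told apart in whole pancreas. All 50 Slc sites of the KO list had a false discovery rate of at least 46.1%, with a median of 48.5% and a highest of 83.33%. The 74 Slc sites of the WT list ran from 9.78% to 56.94%, with a median of 10.4%. Over all sites the lowest rate and the median were 45.9% and 48.4% in KO and 9.75% and 10.6% in WT, so these rates belong to the whole lists. Sequencing depth is not known for these libraries.

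Of 10 pancreatic epithelial marker genes 7 had a WT site and 2, Nkx6-1 and Gcg, had a KO site, while Pdx1, Ptf1a and Cpa1 were in neither list. Of 4 mesenchymal markers 3 were in each list. Both liver markers, Alb and Afp, were in the WT list and neither was in the KO list. Cdh5 was the only endothelial marker of 3 and was in both lists, and none of 3 blood or 3 nerve markers was listed. Of all genes with a WT site 37.9% were also in the KO list and 62.1% were in WT only, and counts of so few markers are not set apart from these shares. The part of these differences between the lists in the results below was not tested.

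Slc genes were listed in both directions, with 41 genes in the WT list only, 20 in both and 21 in the KO list only. These are 50%, 24.4% and 25.6% of the 82 genes, beside 53.2%, 32.5% and 14.3% of all 5934 listed genes. The order of the first and last count depended on list length. With the WT list cut to as many sites as KO, 19 Slc genes were in WT only and 31 in KO only by fold enrichment, and 13 and 33 by score. Over all genes the same shortening gave 1476 in WT only and 1621 in KO only by fold enrichment, and 1440 and 1603 by score. The WT list held 74 Slc sites in 61 genes and the KO list 50 in 41 genes, so 1.48 times as many Slc sites were listed in WT, against 2.67 times over all 10514 WT and 3937 KO sites. Of the 61 Slc genes in the WT list, 20 were in the KO list too, 32.8% (Wilson 95% interval 22.3 to 45.3, counting error over genes only), beside 37.9% over all genes, so 67.2% were in WT only beside 62.1%. Read from the other side, 51.2% of the Slc genes with a KO site had no WT site (36.5 to 65.7), beside 30.6% of all 2778 KO genes, a value below that interval. The rest, 48.8% (34.3 to 63.5), were in both lists, beside 69.4% of all KO genes. Most Slc genes carried a single site, 82% of them in WT against 54.3% of all WT genes and 80.5% in KO against 73.2%. Among genes with exactly 1 WT site, 13 of 50 Slc genes were also in the KO list, 26%, and 26.2% of all 2762 such genes were. Among genes with more WT sites 7 of 11 Slc genes were in both lists, 63.6% (35.4 to 84.8), beside 51.9% of all.

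**Figure D1:**
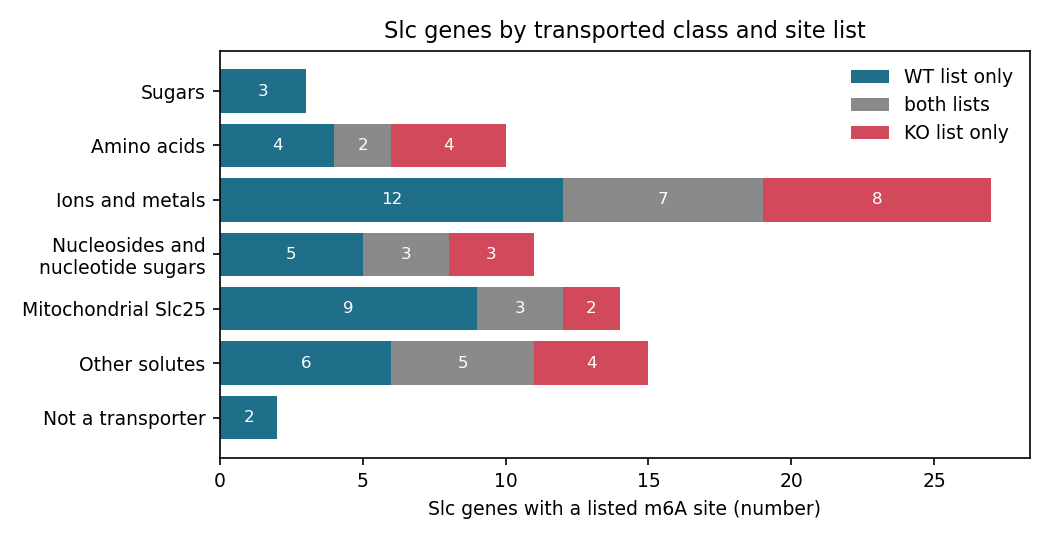
Number of Slc genes with a listed m6A site (horizontal axis) in each transported class, split into genes listed in WT only, in both genotypes and in KO only. The 3 sugar carriers were in the WT list only, where 53.2% of all listed genes were, and amino acid carriers had 4 genes on each side. Of all listed genes 14.3% were in KO only.

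Measured against the annotation, 62 of 373 protein-coding Slc genes had a WT site, 16.6% (13.2 to 20.7), beside 22.6% of all 21900 protein-coding genes. That count includes Dirc2, an older name of Slc49a4, which the name rule did not take. For KO the shares were closer, 11% of Slc genes (8.21 to 14.6) and 12.3% of all. The enrichment of the Slc sites lay close to that of each whole list. Their median fold enrichment was 8.13 in WT, where the median of all sites was 7.91, and 6.21 in KO, where it was 6.20. A false discovery rate of at most 50% was listed for 97.3% of the WT Slc sites and 72% of the KO Slc sites, beside 97.1% and 70.1% of all sites. A low rate did not mark the strongest peaks. The highest WT Slc score, 354.45 in Slc7a8, came with a rate of 56.94%, and the highest KO one, 183.82 in Slc7a2, with 83.33%.

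**Figure D2:**
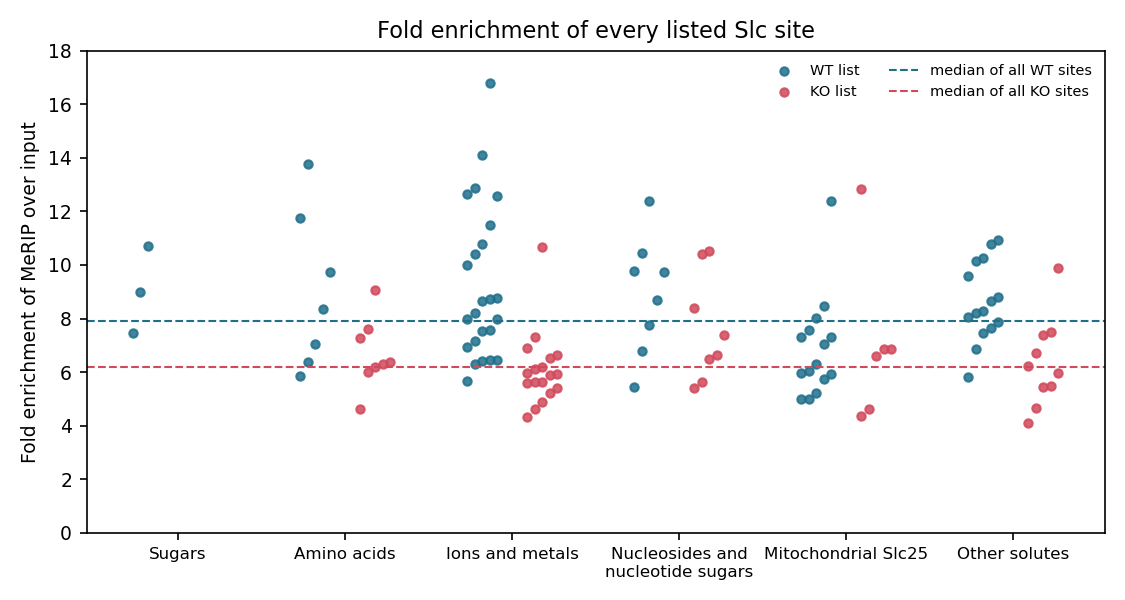
Fold enrichment of MeRIP over input (vertical axis, linear) of each listed Slc site by transported class, WT sites in blue and KO sites in red. Dashed lines are the medians of all WT sites (7.91) and all KO sites (6.20), and the highest points are Slc26a2 at 16.78 in WT and Slc25a37 at 12.84 in KO.

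The 3 sugar carrier genes were listed in WT only, as were 62.1% of all genes with a WT site, so the count sets 3 genes little apart from the background. Slc2a2, which encodes the low-affinity glucose transporter of beta cells and hepatocytes, had a site on chromosome 3 at 28708418 to 28708677 (mm10) with a fold enrichment of 10.70. That site also lies in the span of 1700112D23Rik, and the reads cannot be assigned to 1 of the genes without strand. Slc2a5, the fructose transporter gene, had 9 at the end of the gene (chromosome 4, 150143025 to 150144169). Slc37a3, of the sugar phosphate family, had 7.46 in an interval of 1519 bp with a score of 179.51. Liver also expresses Slc2a2, and the liver markers were in the WT list only, as were 62.1% of all genes with a WT site. The part of these markers in this result was not tested. No member of the sodium-coupled Slc5 family was in either list used here.

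Amino acid carriers were divided between the lists, with 4 genes in WT only, 2 in both and 4 in KO only. The shares of all listed genes were 53.2%, 32.5% and 14.3%, in the same order. The Slc7 family, whose members exchange neutral amino acids or carry cationic ones, had 1 gene in WT and 3 others in KO. In WT, Slc7a8 (LAT2, a light chain that pairs with Slc3a2) had the highest score of any WT Slc site, 354.45, at a fold enrichment of 11.75 and a false discovery rate of 56.94%. In KO, Slc7a2 (a cationic amino acid carrier that takes up arginine) had the highest score of any KO Slc site, 183.82, at 9.07 and a rate of 83.33%, in an interval of 5707 bp. Slc7a10, which carries small neutral amino acids including D-serine, had 6.36, and Slc7a14, a relative of the cationic carriers, had 6.01. The 1 Slc7 gene with a WT site was in WT only, beside 62.1% of all genes with a WT site. All 3 Slc7 genes with a KO site were in KO only, beside 30.6% of all genes with a KO site. These counts are of few genes.

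The sodium-coupled neutral amino acid carriers of the Slc38 family were in the WT list in 3 of 3 cases, beside 85.7% of all listed genes. Slc38a1, a glutamine carrier gene, had the most KO sites of any Slc gene, 3, with fold enrichments of 7.60, 6.32 and 4.64, and 2 WT sites with 8.36 and 5.87. The KO site with 7.60 also lies in the span of Gm32457, so its gene is uncertain. Slc38a6 had a WT site with 9.73 and a KO site with 6.19 that lay 41055 bp apart. Slc38a5 was in WT only with 6.39. The other genes of the class had 1 site each. Slc43a2 (LAT4, a facilitative carrier of large neutral amino acids) had 13.76, which is the third highest WT Slc value. Slc36a4, a gene of the family named for proton-coupled amino acid carriers, had 7.05. Both were in WT only. Slc1a3, the glial-type glutamate transporter gene, was in KO only with 7.27. Slc3a1 and Slc3a2, the heavy chains of such carriers, had no site in the lists used here.

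Ion and metal carriers made up 27 of the 82 genes, with 12 in WT only, 7 in both and 8 in KO only, beside 53.2%, 32.5% and 14.3% of all listed genes. With the WT list shortened to KO length the order turned, with 8 in WT only and 13 in KO only by fold enrichment and 4 and 14 by score. Zinc carriers belong to 2 families. Most Slc30 proteins move zinc out of the cytosol, either across the plasma membrane or into organelles, and Slc39 proteins move it into the cytosol. All 6 listed Slc30 genes had a WT site and 1 had a KO site, whereas 1 of 4 listed Slc39 genes had a WT site and all 4 had a KO site. Of all listed genes 85.7% were in the WT list and 46.8% in the KO list, so 6 of 6 Slc30 genes with a WT site is near the background.

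Slc30a1, the zinc exporter of the plasma membrane, had 2 WT sites with fold enrichments of 12.56 and 8.72, the first with a score of 340.46 and a false discovery rate of 53.30%. Slc30a5, Slc30a6, Slc30a4 and Slc30a7, which encode carriers of the secretory pathway and vesicles, had 10, 7.59, 7.15 and 6.95 in WT. None of these 5 genes was in the KO list. Slc30a9 was in both, with 7.54 in WT and 6.62 in KO at intervals 1686 bp apart.

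Of the zinc importers, Slc39a3, Slc39a6 and Slc39a8 were in KO only with fold enrichments of 5.95, 5.64 and 5.63, all below the KO median of 6.20. Slc39a10 was in both lists with 2 sites in each. Its WT values were 14.11, the second highest of the WT Slc sites, and 6.46, and its KO values were 6.18 and 5.93, and the nearest of these intervals were 1089 bp apart. These counts are of few genes, with 1 library of each kind behind each list. The only site of Slc30a7 also lies in the span of Gm6649 and the lower of the Slc30a1 sites in that of 1700034H15Rik, so their gene is uncertain. With the WT list cut to as many sites as KO, taking the highest fold enrichments, 2 Slc30 genes were left in WT, and 1 and 4 Slc39 genes in WT and KO as before. The annotation holds 9 protein-coding Slc30 genes and 14 Slc39 genes, 1 Slc30 gene being left out here.

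**Figure D3:**
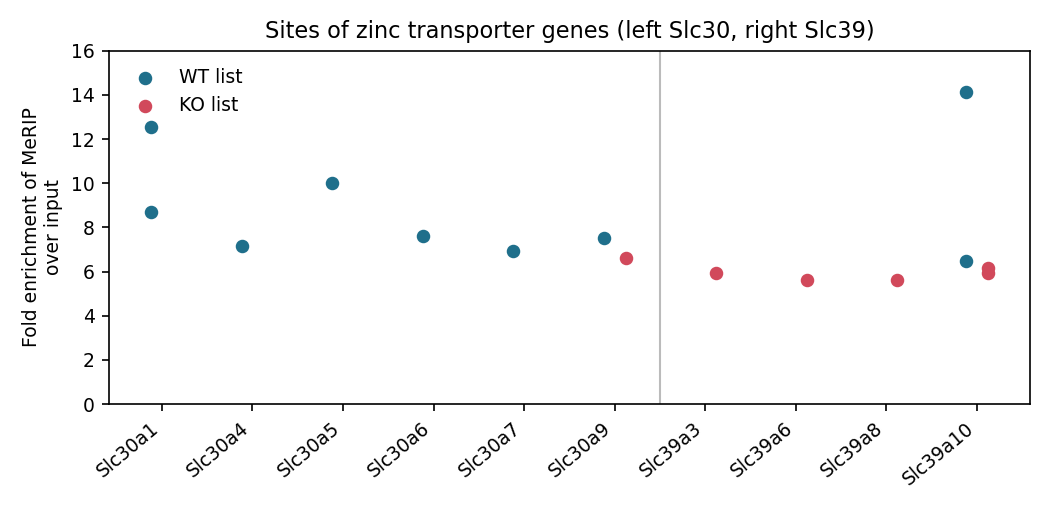
Fold enrichment of MeRIP over input (vertical axis, linear) of each listed site of the zinc carrier genes, with Slc30 genes left of the line and Slc39 genes right of it. WT points (blue) lie over all 6 Slc30 genes and KO points (red) over all 4 Slc39 genes, and Slc30a9 and Slc39a10 have points of both colours.

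The copper carriers were split between neighbouring genes. Slc31a1, the high-affinity copper importer gene, had 2 WT sites (10.78 and 6.45) and none in KO. Slc31a2, its relative, lies 62170 bp away on chromosome 4 with 0 protein-coding genes between them and had 1 KO site (5.59) and none in WT. The iron exporter gene Slc40a1 (ferroportin) was in WT only with 12.65. The magnesium carrier gene Slc41a1 was in KO only with 4.31, the second lowest of the KO Slc values. Over the metal families together 7 genes were in WT only, 2 in both and 5 in KO only. The shares of all listed genes were 53.2%, 32.5% and 14.3%, in the same order. Of the 12 WT sites of the metal families 0 were overlapped by a KO site, where 12.2% of all WT sites were. For 12 sites a count of 0 is near that share.

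Among the other ion carriers 5 genes were in WT only, 5 in both and 3 in KO only, beside 53.2%, 32.5% and 14.3% of all listed genes. Slc26a2, the sulfate transporter gene that is mutated in diastrophic dysplasia in humans, had the highest fold enrichment of all WT Slc sites, 16.78, which 99.4% of the whole WT list did not exceed. Slc26a9, an epithelial chloride transporter gene of the same family, was in KO only with 10.68. The 5 listed genes of the Slc12 family, which is named for cation-chloride cotransporters, were all in the WT list, as were 85.7% of all listed genes. Of these 5 genes 2 were also in KO, beside 37.9% of all genes with a WT site. Slc12a7 (KCC4, 12.89 and 7.97) and Slc12a9 (10.42) were in WT only.

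Slc12a2 (NKCC1), which loads chloride into secretory epithelial cells, had 2 sites in each list, with 8.76 and 6.32 in WT and 5.90 and 5.39 in KO. Neither pair overlapped, the nearest being 622 bp apart. The bicarbonate carriers of the Slc4 family are central to duct fluid secretion. Slc4a4, the electrogenic sodium bicarbonate cotransporter gene, had the same interval in both lists (chromosome 5, 88886818 to 88887324) with 7.97 in WT and 7.31 in KO. Slc4a7, the electroneutral one, had 8.21 in WT, 47 bp from the gene start, and 4.61 in KO, 34088 bp further on. Slc4a3, an anion exchanger gene, was in KO only with 6.91.

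Slc8a1, the plasma membrane sodium/calcium exchanger gene, was in both lists with values of 6.43 and 4.87 that lie low in each. Slc24a3, a potassium-dependent sodium/calcium exchanger gene, was in KO only with 6.12. Slc20a2, a phosphate carrier gene, was in WT only with 5.68. Slc12a8 was in both and belongs to the overlapping pairs described further on.

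Carriers of nucleosides and nucleotide sugars had 5 genes in WT only, 3 in both and 3 in KO only. Of all listed genes 53.2%, 32.5% and 14.3% were so placed. Slc28a3, which concentrates nucleosides in the cell with sodium or protons, was in both lists at opposite ends of the gene. Its WT site (12.38, chromosome 13, 58553305 to 58555816) reached the annotated gene end, and its KO site (6.50, 58610697 to 58610877) began at the annotated gene start. The lysosomal nucleoside carrier gene Slc29a3 was in WT only with 7.75, and the nucleobase carrier gene Slc43a3 in KO only with 6.62.

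Slc35 proteins bring nucleotide sugars into the Golgi and endoplasmic reticulum for glycosylation, although several members have no settled substrate. Of 8 listed Slc35 genes 4 were in WT only, namely Slc35d3 (10.46), Slc35b1 (9.73), Slc35a5 (6.79) and Slc35a4 (5.45). Slc35a3, the Golgi carrier of UDP-N-acetylglucosamine, was in KO only with 10.52, the third highest KO Slc value. Slc35e3 was in KO only with 2 sites of 10.40 and 8.38 at either end of the gene. Of the KO list 97.1% lay at or below the Slc35a3 value and 96.7% at or below the higher Slc35e3 value. Slc35f5 and Slc35g1 were in both lists with overlapping intervals.

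The mitochondrial Slc25 family was the largest, with 14 genes listed of 47 annotated. Of these 9 were in WT only, 3 in both and 2 in KO only, beside 53.2%, 32.5% and 14.3% of all listed genes. With the WT list shortened to KO length by fold enrichment the order turned, with 1 in WT only, 0 in both and 5 in KO only, and by score there were 3, 2 and 3. The median fold enrichment of the Slc25 sites was 6.32 in WT, beside 8.13 for all WT Slc sites, and 6.73 in KO, beside 6.21 for all KO Slc sites. Slc25a46, an outer membrane member, had 8.03 and 7.32, and Slc25a25, an ATP-Mg/phosphate carrier gene, had 7.57. Both genes were in WT only. So were the branched-chain amino acid carrier gene Slc25a44 (7.30), the pyrimidine nucleotide carrier gene Slc25a36 (7.05), the carnitine/acylcarnitine carrier gene Slc25a20 (6.32) and the second mitoferrin gene Slc25a28 (5.96). The ADP/ATP carrier genes Slc25a4 (5.93) and Slc25a5 (5.22) also were, and processed copies of such genes can share reads.

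In both lists were Slc25a1, the citrate carrier gene (5.73 in WT and 4.36 in KO at the same interval), and Slc25a12, an aspartate/glutamate carrier gene. The Slc25a12 sites lay 37071 bp apart, with 6.03 in WT at the gene end and 6.61 in KO inside the gene. In KO only were Slc25a15, the ornithine carrier gene of the urea cycle (6.85), and Slc25a24, an ATP-Mg/phosphate carrier gene (4.63). Slc25a37, which encodes mitoferrin-1 and brings iron into mitochondria of erythroid cells, had 3 WT and 2 KO sites. Its strongest sites, 8.45 in WT and 12.84 in KO, overlapped at chromosome 14, 69502982 to 69503331, but this interval lies 217438 bp outside the annotated gene and in the span of Gm16867. The other WT sites of Slc25a37, inside the gene, had the 2 lowest values of all WT Slc sites, 5 and 4.99, and its second KO site was 9 bp wide. The assignment of the shared interval to Slc25a37 is therefore uncertain.

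The remaining carriers transport organic acids, vitamins, choline and other solutes. Of these genes 6 were in WT only, 5 in both and 4 in KO only, beside 53.2%, 32.5% and 14.3% of all listed genes. The monocarboxylate family Slc16 had 2 genes in WT only and 3 in KO only. Over all genes 62.1% of those with a WT site were in WT only and 30.6% of those with a KO site in KO only. Slc16a3 (MCT4, the lactate exporter of glycolytic cells) had 10.95 and Slc16a7 (MCT2) 7.86 in WT only. Slc16a1 (MCT1), which is normally silenced in beta cells, had 7.5 in KO only. Slc16a6 had 6.24, also in KO only. The Slc16a3 interval also lies in the span of Csnk1d, and that of Slc16a6 in a predicted gene.

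The choline transporter-like genes Slc44a1 and Slc44a3 were in both lists. Slc44a1 had 3 WT sites (8.67, 6.86 and 5.82) and 1 KO site (5.95), and Slc44a3 had 2 WT sites (8.79 and 7.66) and 1 KO site (7.39). The bile acid carrier family Slc10 had 3 genes in WT. Slc10a7 was the one that was also in KO, and Slc10a5 (10.14) and Slc10a1 (8.27) were in WT only. Slc10a1 encodes the sodium-dependent bile acid uptake carrier of hepatocytes. The liver markers Alb and Afp were in the WT list only as well, as were 62.1% of all genes with a WT site. The part of these markers in this result was not tested.

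Slc19a1, the reduced folate carrier gene, had 10.26 in WT. Its KO site (5.47) lay 10212 bp outside the annotated gene, in the span of Col18a1, so its place among the genes in both lists is uncertain. Slc22a23, an orphan of the organic ion family, had 2 WT sites (9.57 and 8.20) and 1 KO site (9.87). Slc29a4, a monoamine carrier gene (8.06), and Slc18b1, a vesicular polyamine carrier gene (7.46), were in WT only. Slc17a5, which exports sialic acid from lysosomes, was in KO only with 4.65. The name rule also took 2 genes that encode no transporter, both in WT only: Slc7a6os (9.43) and the scaffold protein gene Slc9a3r1 (9.18).

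Of the 20 genes in both lists, 10 had a WT and a KO site that overlapped by at least 1 bp. They made up 10 of 74 WT Slc sites, 13.5% (Wilson 95% interval 7.51 to 23.1), beside 12.2% of all WT sites, and 20% of the KO Slc sites (11.2 to 33), beside 32.6% of all KO sites. In 6 pairs the intervals were identical, in Slc4a4, Slc10a7, Slc22a23, Slc25a1, Slc35f5 and Slc44a1. In 9 of the 10 pairs the lower coordinate was the same, and Slc12a8 and Slc35g1 differed at the higher one by 38 and 180 bp. The Slc38a1 pair shared its higher coordinate and 2279 bp. Its KO interval was the longer with 3758 bp and also lies in the span of Gm32457.

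The authors' fold enrichments of these pairs are given for WT and then KO. They were 10.79 and 4.11 in Slc10a7, 9.77 and 5.40 in Slc35f5, and 8.68 and 5.63 in Slc35g1. In Slc44a1 they were 8.67 and 5.95, and in Slc12a8 8.64 and 5.21. In 8 of 10 pairs the WT value was the higher number, as it was for the medians of the whole lists. The exceptions were Slc22a23 with 9.57 and 9.87, and Slc25a37 with 8.45 and 12.84 at its uncertain interval. Of the KO list 94.9% lay at or below the KO value of Slc22a23, and 75.5% of the WT list at or below its WT value.

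The other 10 genes in both lists had sites at different places, 622 to 54880 bp apart. Over all 20 Slc genes in both lists the median gene span was 74038 bp, with a range of 3009 to 445799 bp. It was 24825 bp for Slc genes in WT only and 23937 bp for those in KO only. Spans were not compared over all listed genes, so whether this is particular to Slc genes is not known. In 4 of the 20 genes, Slc10a7, Slc12a8, Slc35f5 and Slc38a1, there were more KO than WT sites. The further KO sites were 6.71 in Slc10a7, 6.51 in Slc12a8 and 7.39 in Slc35f5. These 4 genes are 20%, beside 9.54% of all 1929 genes in both lists.

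Slc sites were wide. Intervals of 1000 bp or more made up 41.9% of WT Slc sites (31.3 to 53.3) and 16.8% of all WT sites, and 26% of KO Slc sites (15.9 to 39.6) and 12.8% of all KO sites. Over the Slc sites the widths had medians of 742 bp (WT) and 395 bp (KO), where those of all sites were 203 and 201 bp. Many of these wide intervals lay at the end of the gene. Strand was known for 64 of the 82 genes, and 56 WT and 37 KO sites could be placed along the gene span, introns included. The midpoint lay in the last 10% of the span for 25 of 56 WT sites, 44.6% (32.4 to 57.6), beside 22.2% of all WT sites. The value of all WT sites is below that interval. For KO it did so for 11 of 37 sites, 29.7% (17.5 to 45.8), an interval that holds the 19.4% of all KO sites.

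Slc genes mostly had single sites, so these were also compared on their own. Among genes with exactly 1 WT site, the last 10% held 48.8% of Slc sites (34.3 to 63.5) and 32.4% of all sites. Of those single sites, the ones of 1000 bp or more lay there in 12 of 16 Slc cases and in 51.6% of all cases. In KO the single sites lay there in 29.6% of Slc cases beside 23.4% of all, and those of 1000 bp or more in 5 of 7 Slc cases beside 56.2% of all. WT sites that touch or come within 20 bp of the annotated gene end include those of Slc22a23 (4148 bp wide), Slc30a4 (4081), Slc31a1 (3903), Slc28a3 (2512) and Slc2a5 (1145). Exon and UTR positions were not used here.

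**Figure D4:**
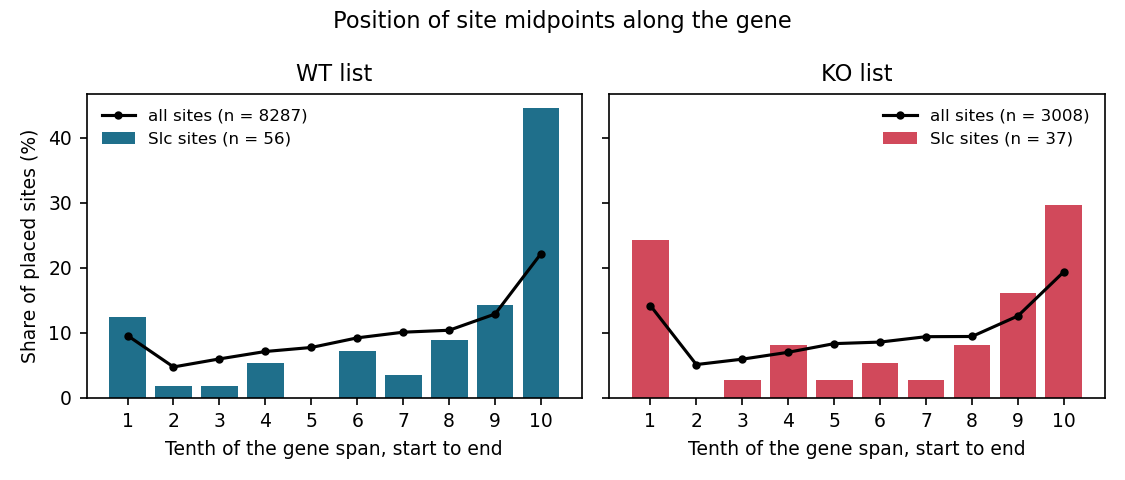
Share of placed sites (vertical axis, percent) in steps of 10% of the gene span from start to end (horizontal axis), for Slc sites (bars) and all sites (line), WT left and KO right. In WT 44.6% of Slc sites fall in the last 10%, and in KO 24.3% fall in the first and 29.7% in the last.

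At the gene start the order of the lists was the other way. The first 10% of the span held 12.5% of WT Slc sites (6.19 to 23.6) and 24.3% of KO Slc sites (13.4 to 40.1), beside 9.58% and 14.2% of all sites. A window from 250 bases before to 50 bases after an annotated start was touched by 5 of 56 WT Slc sites, 8.93% (3.87 to 19.3), and by 8 of 38 KO Slc sites, 21.1% (11.1 to 36.3). Over all genes the shares were 7.22% and 12.2%. Each of these 4 Slc intervals includes the value of all sites, and sites are not replicates. The 8 KO sites were in Slc4a4, Slc7a10, Slc22a23, Slc25a24, Slc26a9, Slc28a3, Slc35a3 and Slc35e3, and the 5 WT sites in Slc4a4, Slc7a8, Slc18b1, Slc22a23 and Slc30a1.

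The sequence at such starts is shown for 5 genes, chosen to hold a WT start site, 3 KO start sites and 1 start site found in both lists. Each window is RefSeq sequence of GRCm38.p6, the same assembly as mm10, written 5′ to 3′ on the strand of the gene, and capitals mark the bases that lie inside the listed site. Slc7a8 has its window at chr14:54781837-54782136 on the minus strand and a WT site, Slc28a3 at chr13:58610828-58611127 on the minus strand and a KO site. Slc26a9 has its window at chr1:131743772-131744071 on the plus strand and a KO site, and Slc25a24 at chr3:109122899-109123198 on the plus strand and a KO site. Slc22a23 has its window at chr13:34345169-34345468 on the minus strand and the same site in both lists.
Slc7a8: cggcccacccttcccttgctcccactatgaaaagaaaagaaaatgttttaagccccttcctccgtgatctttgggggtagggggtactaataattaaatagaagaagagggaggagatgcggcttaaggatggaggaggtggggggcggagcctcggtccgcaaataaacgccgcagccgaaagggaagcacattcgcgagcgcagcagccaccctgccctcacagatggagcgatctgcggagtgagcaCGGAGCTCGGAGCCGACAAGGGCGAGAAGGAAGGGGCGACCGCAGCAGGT
Slc28a3: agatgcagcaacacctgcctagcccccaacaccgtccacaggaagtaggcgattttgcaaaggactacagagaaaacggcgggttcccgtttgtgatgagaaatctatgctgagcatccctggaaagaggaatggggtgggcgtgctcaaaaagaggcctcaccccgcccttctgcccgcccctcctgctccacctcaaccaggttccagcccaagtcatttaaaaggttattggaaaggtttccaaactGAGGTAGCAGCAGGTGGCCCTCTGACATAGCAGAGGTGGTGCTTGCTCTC
Slc26a9: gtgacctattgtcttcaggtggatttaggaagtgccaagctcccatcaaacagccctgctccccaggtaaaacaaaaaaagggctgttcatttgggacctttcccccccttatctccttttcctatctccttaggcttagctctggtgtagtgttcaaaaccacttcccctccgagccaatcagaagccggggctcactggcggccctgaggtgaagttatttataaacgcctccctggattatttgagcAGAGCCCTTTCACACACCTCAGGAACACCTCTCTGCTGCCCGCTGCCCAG
Slc25a24: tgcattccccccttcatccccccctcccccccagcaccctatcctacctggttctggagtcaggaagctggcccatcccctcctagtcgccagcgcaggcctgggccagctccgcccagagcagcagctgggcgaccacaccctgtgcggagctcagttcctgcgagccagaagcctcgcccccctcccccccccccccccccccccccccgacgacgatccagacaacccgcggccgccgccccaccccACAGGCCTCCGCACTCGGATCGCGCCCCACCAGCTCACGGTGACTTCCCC
Slc22a23: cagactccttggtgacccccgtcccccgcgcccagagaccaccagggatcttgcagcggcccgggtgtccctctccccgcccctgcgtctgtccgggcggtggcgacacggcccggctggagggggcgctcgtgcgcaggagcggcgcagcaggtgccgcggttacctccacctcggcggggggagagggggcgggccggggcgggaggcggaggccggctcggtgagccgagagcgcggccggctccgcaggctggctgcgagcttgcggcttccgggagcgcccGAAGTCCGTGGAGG

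In the first 4 of these windows the listed interval begins at the annotated first base, so the capitals run over the 50 transcribed bases of the window. In Slc22a23 the site begins further into the transcript and covers the last 14 bases. The motif GGACT, a common form of the sequence that the m6A writer prefers, was searched in the windows on the strand of the gene and on the other strand. Among the 11 Slc windows touched by a site 2 held it on the gene's strand, those of Slc28a3 and Slc35a3, which is 18.2%, beside 26.1% of all 32851 windows of that length. On either strand the shares were 36.4% and 45.5%. Of each window 250 bases lie before the gene start, and the background takes windows with or without a site. These shares therefore do not describe the motif within listed sites. The Slc28a3 match lies in the lower-case part, before the gene start. The Slc35a3 matches, in a window not printed here, also lie outside the listed site. None of the 5 printed runs of capitals holds the motif on the strand of the gene. The run of Slc22a23 holds it on the other strand.

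By the location terms in the authors' annotation columns, the plasma membrane was given for 15 of the 21 genes in KO only, 12 of the 20 in both and 21 of the 41 in WT only. Golgi terms were given for 7 of the 41 genes in WT only, for 1 of the 21 in KO only and for 0 of the 20 in both. Mitochondrial terms were given for 10 of 41, 4 of 21 and 5 of 20. The terms were not counted over all listed genes, so whether these shares differ from those of the whole lists is not known. These counts describe the lists and were not tested.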

How the data were processed

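m6A MeRIP-seq and input libraries of embryonic mouse pancreas, 1 of each per genotype, were analysed from the authors' lists of sites in mRNA. Per the labels' protocols, RNA was broken to about 200 nt before pull-down. According to the submitters' processing notes, cutadapt 1.9.3, HISAT2 2.0.4 and the mm10 build were used. The deposited score was taken as minus the log10 of the p-value times 10, since the lowest, 50, equals 1e-05. The deposited fold enrichment is the authors' ratio, per the file headers. The deposited false discovery rates reach 100 and were taken as percent. Peak names begin with MACS, and its version and use of strand are not stated in the labels or headers. That each MeRIP library was set against its own genotype's input is assumed from the labels. Depth is unknown.

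Slc sites were taken by gene name, and 2 genes were left out. Starts were read as 0-based, since 442 WT sites then begin at an annotated gene start against 36 otherwise, and are printed 1-based. Sites overlap at 1 bp or more. Gene spans are those of RefSeq GRCm38.p6, matched by gene identifier for all 82 genes, and strand and start windows come from its promoter table. Transport classes follow family number with exceptions by gene. Within each class the rule named every gene in both lists or in KO only, the 3 WT-only genes of highest fold enrichment and any gene with 4 or more WT sites (there was none), and in the sugar, amino acid and ion classes every listed member of the Slc1, Slc2, Slc3, Slc5, Slc7, Slc30, Slc38 and Slc39 families. The other genes were named after their values were seen, as were the 5 genes whose windows are printed. A few members are counted but not reported singly here. Members and lists were chosen with earlier results of these data known. Wilson 95% intervals (scipy 1.17.1, Python 3.11.15) cover counting error over genes or sites only. The overlap code was tested on simulated data. The alternatives were a false discovery rate of at most 50%, a fold enrichment of at least 5, the WT list shortened to KO length, sites under 1000 bp, stricter overlaps and updated symbols.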

Additional observations from a re-analysis of the deposited data

How the results depend on the processing

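No paired analysis was possible because each genotype has 1 library of each kind, and no replicate could be left out. Of 37 recomputed main counts, 22 stayed within 1.5 times. With a false discovery rate of at most 50%, 6 WT Slc sites were overlapped in place of 10, and with identical intervals needed also 6. The rate cut did not select for strong peaks, since it removed the WT Slc sites of highest score, Slc7a8 (354.45) and Slc30a1 (340.46). In the pairs lost by it the KO scores were 176.41 in Slc25a37, 155.84 in Slc38a1, 51.71 in Slc35g1 and 51.33 in Slc10a7. With an overlapping pair needed, 10 Slc genes were in both lists in place of 20. With the WT list shortened to KO length by fold enrichment there were 30 WT Slc sites, 10 genes in both, 19 in WT only, 31 in KO only and 4 overlapped sites. Shortened by score there were 22 WT sites, 8 genes in both, 13 in WT only, 33 in KO only and 4 overlapped sites. With sites under 1000 bp there were 43 WT sites, 13 genes in both and 26 in WT only. These counts differ by construction, since each setting keeps fewer sites or asks for a closer overlap. In both shortened lists the amino acid, nucleotide and other classes had more genes in KO only than in WT only. The share of Slc WT genes also in KO lay below that of all genes under each of these lists, between 26.7% beside 30.2% (false discovery rate of at most 50%) and 38.1% beside 44.9% (shortened by score). Of the counts by class or zinc family 103 stayed within 1.5 times and 29 did not. The Slc30 genes with a WT site numbered 2 in place of 6 when the WT list was shortened by fold enrichment or by score. Read depth is unknown, so whether a site missing from a list had too few reads cannot be told.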
